A study of Mus musculus with 20 samples.

Results

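Bone marrow-derived macrophages labelled Mcu-/-, for the mitochondrial calcium uniporter gene Mcu, were compared with wild-type macrophages after exposure to zymosan, a preparation of yeast cell wall. The comparison takes the 3 Mcu-/- zymosan libraries, numbered 3, 4 and 5 in the deposited count table, and the 5 WT zymosan libraries, numbered 1 to 5, so it holds 8 of the 20 libraries of the series. A separate reading covers library 4 of the untreated Mcu-/- group, which stands apart from libraries 1 to 3 of that group. The series measured RNA by sequencing in 5 groups of mouse macrophages to ask how the uniporter shapes the response to a fungal stimulus. The fifth group, WT given zymosan with the calcium chelator BAPTA, is not compared here and enters only where a fit of all 20 libraries, or of 19, is named. Each library came from a pellet of cells labelled as a biological replicate.

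The knockout group carries the genotype label Mcu-/- and was stimulated with zymosan for 3 h at 2 particles per cell, and the WT group had the same stimulus. The untreated groups hold 4 Mcu-/- and 4 WT libraries. The study's results section gives the knockout mice as carrying a floxed Mcu and Cre under the Cx3cr1 promoter, so the deletion follows the activity of that promoter. According to its methods, wild-type C57BL/6 mice were purchased, animals of both sexes were used at 15 to 25 weeks of age, and bone marrow was grown for 7 days in medium conditioned by L929 cells, which supplies M-CSF. Cells were used between day 9 and day 14. The labels name no preparation date or batch, so the genotype and a difference in the preparation of the cells cannot be told apart in the values below. Total counts were 20061474, 21115193 and 23954552 in the knockout zymosan libraries and 20307033, 22174259, 22375733, 21047549 and 20487129 in the WT zymosan libraries. The untreated knockout libraries 1 to 4 held 22103789, 22801120, 22334684 and 21891831 counts, and the untreated WT libraries held 19104229, 19319353, 19111480 and 14420402. Levels are given as CPM, the counts of a gene brought to a common library size, which compares a gene between libraries but not with other genes, since gene length is not divided out. The zymosan libraries and the untreated libraries were scaled separately, so no test was made between these 2 sets.

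Replicates within the groups were close. The chi-square of the counts per gene, which is about 1 for pairs that differ by counting error alone, ran from 1.92 to 6.24 over the 13 pairs of zymosan libraries of the same genotype. It was 2.11 to 3.46 between untreated knockout libraries 1 to 3, and 206 to 214 between each of these 3 and library 4. Library 4 is therefore described by its shift, the log2 CPM in it minus the mean of libraries 1 to 3, with no test because it is 1 library. A gene is called shifted where this difference exceeds 0.5 in size.

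As background, the uniporter is the channel by which calcium enters the mitochondrial matrix, and its pore protein MCU is held in a complex with gatekeeper proteins, the scaffold EMRE and the paralogue MCUB. Zymosan is sensed by macrophages through Dectin-1 and Toll-like receptor 2, and induces cytokines, chemokines and prostaglandin synthesis within hours. Mitochondrial calcium feeds the dehydrogenases of the matrix and shapes cytosolic calcium signals.

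Mcu itself (ENSMUSG00000009647, chromosome 10 of mm10, 59446984 to 59616692) was detected in every library. It stood at 3.13, 3.09 and 3.41 CPM in the knockout libraries and 6.23, 5.99, 5.51, 5.67 and 5.29 CPM in the wild-type libraries. The groups did not overlap, and each knockout library retained part of the transcript level, which is counted over the whole gene. The test gave log2 fold change -0.83 ± 0.12 (SE), adjusted p 1.78e-06. In the untreated cells Mcu was at 10.2, 7.94, 9.36 and 8.37 CPM in the 4 WT libraries, at 3.48, 4.62 and 3.23 CPM in knockout libraries 1 to 3 and at 4.77 CPM in library 4, which lies just above libraries 1 to 3 and below every WT library. Mcub, the paralogue that lowers uniporter activity, fell by more than Mcu. Its levels were 13.8, 16.3 and 12.3 CPM in the knockout libraries and 36.7, 42.7, 43.5, 41.7 and 42.3 CPM in the wild-type libraries, with no overlap (log2 fold change -1.56 ± 0.074 (SE), adjusted p 2.05e-15). Untreated library 4 was low as well, at 15.998 CPM against 48.0, 49.1 and 49.8 CPM in libraries 1 to 3. Of the 6 genes of the complex, 1 rose, 3 fell and 2 did not pass. Smdt1, which encodes EMRE, was lower (log2 -0.43) and Micu2 slightly higher (log2 0.16), while Micu3 stood at 2.03 CPM in knockout and 2.62 CPM in WT, without passing the test. Of 8 partners and calcium exit genes, 2 rose, 3 fell and 3 did not pass. Slc8b1, the exchanger that carries calcium out of the matrix, fell (log2 -0.80) and was not shifted in untreated library 4 (0.078), and Afg3l2, a protease that degrades unassembled EMRE, rose (log2 0.72). Cx3cr1, whose promoter drives the Cre, was low with zymosan, at 1.87, 1.45 and 1.83 CPM in the knockout libraries and 0.294, 0.670, 0.397, 0.378 and 0.385 CPM in the wild-type libraries. The groups did not overlap (log2 fold change 1.99 ± 0.27 (SE), adjusted p 5.64e-07), and knockout was above WT. In untreated cells knockout was the lower, at 13.1, 12.8 and 11.8 CPM in knockout libraries 1 to 3, 11.2 CPM in library 4 and 23.4, 24.1, 23.7 and 21.7 CPM in the 4 WT libraries.

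The macrophage label held in all libraries. All 12 macrophage markers listed were expressed, with 8 higher and 4 lower in knockout, and their summed level was 14465, 14978 and 14861 CPM in the knockout libraries and 16626, 16833, 16749.6, 16599.7 and 16972 CPM in the WT libraries. The sums do not overlap. Lyz2, the lysozyme gene and the marker with the highest CPM in WT, had the largest fall in CPM, from a mean of 7068 to 2775. Without it the list averages 11992 CPM in knockout and 9689 CPM in WT. The macrophage marker Adgre1 fell too, at 2356, 2444 and 2492 CPM in knockout and 4215, 4245, 4372, 4099 and 4316 CPM in WT. Itgam and Spi1 were the other lower markers. Markers of other cells were low, and several moved with genotype. The 8 fibroblast markers summed to 46.1, 39.1 and 45.3 CPM in the knockout libraries and 4.85, 6.25, 6.61, 5.34 and 5.05 CPM in WT, with 4 of 4 tested members higher. Their most abundant gene is the collagen Col1a2 (19.9 against 1.89 CPM), while Thy1 had at most 3 counts in each of the 8 libraries. Untreated library 4 carried a similar sum, 34.1 CPM against 2.62, 3.62 and 1.61 CPM in libraries 1 to 3. Neutrophil markers went the other way, at 71.2, 65.3 and 67.8 CPM in knockout and 173, 169, 169, 177 and 168 CPM in WT. Nearly all of this is the G-CSF receptor gene Csf3r, which macrophages also express, and Ly6g, Mpo, Elane, Camp, Retnlg and Cxcr2 had at most 3 counts in each library. All 5 neutrophil markers tested were lower. S100a9 was at 0.202, 0.193 and 0.213 CPM in knockout and 2.94, 2.14, 2.07, 1.23 and 2.69 CPM in WT. S100a8 was at 0.252, 0.0966 and 0.170 CPM in knockout and 1.18, 1.12, 1.28, 0.992 and 1.39 CPM in WT.

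B cell markers summed to 11.3, 11.2 and 11.7 CPM in knockout and 26.5, 29.0, 32.4, 27.7 and 30.5 CPM in WT, almost all from Cd79b, the 1 of 4 tested members that was called. Osteoclast markers summed to 116, 119 and 123 CPM in knockout and 291, 301, 287, 261 and 280.2 CPM in WT, led by Mmp9, with 1 of 4 tested higher and 2 lower. Endothelial markers stood at 23.8, 22.2 and 23.99 CPM in knockout and 40.0, 41.9, 40.6, 38.3 and 39.6 CPM in WT, led by Pecam1, with 2 of 3 tested higher and 1 lower. The dendritic cell sum was 29.4, 31.9 and 32.0 CPM in knockout and 14.96, 13.2, 13.5, 13.1 and 13.99 CPM in WT. In knockout it is led by the integrin gene Itgax (20.1, 21.5 and 22.5 CPM), the 1 of 2 tested members that was called. In WT Xcr1 leads, at 7.94, 7.32, 7.71, 7.75 and 8.27 CPM, and it was at 8.48, 9.22 and 9.03 CPM in knockout. Flt3, Cd209a, Clec9a, Siglech and Ccl17 had at most 3 counts in each library. The sums for T cells were 4.54, 4.39 and 4.05 CPM in knockout and 3.19, 2.23, 2.25, 1.84 and 1.87 CPM in WT, led by Cd4 in knockout, with Cd3d and Cd8a at 0 in all 8 libraries. Of 2 tested members, Cd4 was higher and Lck lower. Lck was at 0.454, 0.579 and 0.511 CPM in knockout and 1.37, 1.12, 1.28, 0.709 and 0.961 CPM in WT, near the level of Cd4 there. Eosinophil markers summed to 0.757, 1.16 and 1.24 CPM in knockout and 4.41, 3.62, 4.19, 4.25 and 3.12 CPM in WT, led by Siglecf, with Epx, Ear1 and Ear6 at 0. Mast cell and basophil markers stood at 0.706, 1.11 and 1.11 CPM in knockout and 0.490, 0.759, 0.441, 0.378 and 0.673 CPM in WT, led by Gata2 in knockout, with Mcpt4, Tpsb2, Ms4a2 and Fcer1a at 0. No NK cell marker and no erythroid marker passed the filter on low counts. The NK sums were 0.0505, 0.0483 and 0.0852 CPM in knockout and 0, 0.223, 0.0441, 0 and 0 CPM in WT, with Gzma the most abundant over the 8 libraries together and Ncr1 and Klrd1 at 0. The erythroid sums were 0.151, 0.145 and 0.170 CPM in knockout and 0.343, 0.179, 0.176, 0.614 and 0.240 CPM in WT, with Hba-a1 the most abundant over the 8 libraries together and Klf1 at 0. Untreated library 4 stood apart in other sums too. Its osteoclast sum was 114 CPM against 375, 358 and 366 CPM in libraries 1 to 3. The B cell sum was 22.1 against 67.8, 67.9 and 65.8 CPM, and the neutrophil sum 77.7 against 122, 124 and 121 CPM. Endothelial markers were lower (30.5 against 66.3, 64.7 and 62.9 CPM) and dendritic cell markers higher (10.8 against 3.48, 3.22 and 3.63 CPM). The mast cell and basophil sum, higher in knockout with zymosan, was lower in library 4. The part of fibroblast-like or other cells in the results below was not tested, and in bulk RNA fewer cells of a type cannot be told apart from less RNA per cell.

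With zymosan, the knockout macrophages differed from WT across most of the transcriptome. They had far more of the neutrophil-attracting chemokine Cxcl1, more of the IL-1 genes and Nlrp3, more interferon-stimulated, lysosomal and antioxidant transcripts, and fewer transcripts of mitosis, of sterol and fatty acid synthesis and of the mitochondrial genome. Most of the large differences were also present in untreated library 4. The rises of Cxcl2, of Il1b, of Nlrp3 and of several surface receptors were not seen there, and that of Cxcl1 had a smaller counterpart at a very low level. Il1a was too low in untreated cells for a shift to be read. Of 11156 genes tested with edgeR, 4019 were higher and 3926 lower in knockout at an adjusted p under 0.05, which is 71.2% of all tested (36% higher, 35.2% lower). The libraries of the 2 genotypes did not overlap for 7359 genes (66%), where chance gives 3.57%. Many differences were small: 4123 of the called genes moved by less than 0.5 on the log2 scale, and 1711 genes (15.3%) moved by at least 1, 761 up and 950 down. By at least 2, 205 genes were higher and 309 lower. The common biological coefficient of variation was 3.63%, so the small spread between libraries lets small differences pass. The p-values rest on that spread, and whether it covers the variation between animals or cultures was not tested. The median log2 fold change over all tested genes was 0.0066. A list is best read against these shares and this median. The median shift of a list, and the counts of shifted genes, also take in genes under 1 CPM in untreated knockout cells, where a shift is uncertain.

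The overlap with untreated library 4 can be counted because the comparisons share no library. Of the 7945 called genes, 6793 (85.5%) had the same sign in the shift of library 4. Past a shift of 0.5, 3164 (39.8%) went the same way, 195 (2.45%) went the opposite way and 4586 (57.7%) lay within it. Of the 1711 genes called by at least 1, 1420 (83.0%) were shifted the same way, 50 the opposite way and 241 neither. With the mean of the 4 untreated WT libraries as the reference in place of knockout libraries 1 to 3, the counts were close. Then 1429 of the 1711 were shifted the same way and 47 the opposite way. For measure, each of libraries 1 to 3 was set against the mean of the other 2 in the same manner. The same-sign shares of called genes were then 50.1%, 49.3% and 50%, and of the 1711 genes 80, 75 and 93 were shifted the same way and 98, 87 and 86 the opposite way. Across all 11156 tested genes the zymosan fold change and the shift of library 4 had a Pearson r of 0.80, a description across genes, which are not independent replicates. What sets library 4 apart is not in the labels. Whether the genes shared with it differ in the zymosan comparison through the genotype or through what distinguishes that library cannot be told apart.

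**Figure D1:**
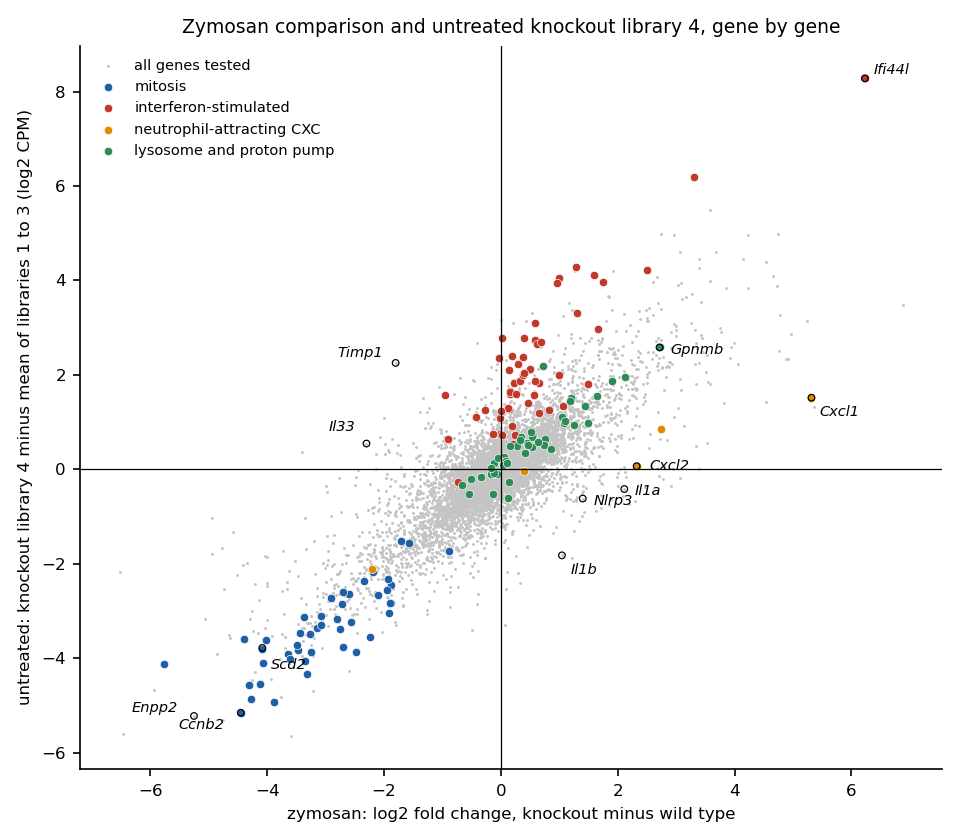
Each point is 1 of the tested genes, with the log2 fold change of knockout over wild type with zymosan on the horizontal axis and, on the vertical axis, the log2 CPM of untreated knockout library 4 minus the mean of libraries 1 to 3. Mitosis genes lie low on both axes, interferon-stimulated genes lie higher on the vertical axis than on the horizontal, and Cxcl1, Cxcl2, Il1b and Nlrp3 lie to the right with a smaller or no rise on the vertical axis, where the place of Il1a, under 1 CPM in each untreated knockout library, is not read.

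The 15 largest rises among clearly expressed genes without overlap include those of Ifi44l, Dmpk and Cxcl1. Dmpk, a protein kinase gene, rose from a mean of 1.32 to 53.8 CPM, with a shift of 1.31 in library 4. The RNA-binding repressor gene Nanos1 rose from 0.806 to 25.5 CPM (shift 2.87) and the chemokine Cxcl14 from 2.2005 to 60.7 CPM (shift 3.27). Others of the 15 were Ctnnd2, which encodes delta-catenin (log2 4.65), Maml3, a Notch coactivator gene (log2 3.77), the lymphocyte antigen gene Ly6a (log2 4.15), the inhibitory receptor gene Cd300lf (log2 3.55) and the unnamed transcript A530064D06Rik (log2 4.54). Gbp2b, H2-Q6 and Hmga1b, also among them, have near-identical copies in the genome, so the split of reads between each and its copy is uncertain. The list closes with Vcam1 and the interferon-stimulated Ifi44l, described below. Of the genes named here, Cxcl1 and Dmpk differ most between the zymosan fold change (log2 5.32 and 5.35) and the shift of library 4 (1.52 and 1.31).

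The largest falls were of Enpp2, which encodes the lysophosphatidic acid-producing enzyme autotaxin. Its levels were 1.16, 1.16 and 1.19 CPM in the knockout libraries and 43.5, 42.0, 46.8, 45.7 and 46.1 CPM in the wild-type libraries, so no library came near the other group (log2 fold change -5.25 ± 0.096 (SE), adjusted p 1.02e-23). Library 4 had 1.03 CPM where libraries 1 to 3 had 40.7, 42.4 and 43.3 CPM. Calb2, a calcium-binding protein gene, fell from a mean of 11.01 to 0.375 CPM and Myo15b, a myosin gene, from 14.5 to 0.534 CPM, with shifts of -3.92 and -5.32 in library 4. The scavenger receptor gene Scarf2 (log2 -4.00) and the scaffold gene Tspoap1 (log2 -3.77) were also in the 15. The other falls were the desaturase gene Scd2 and 9 genes of cell division, Ccnb2, Ckap2l, Cenpf, Birc5, Ube2c, Ccnb1, Cdca3, Nusap1 and Knstrn.

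**Figure D2:**
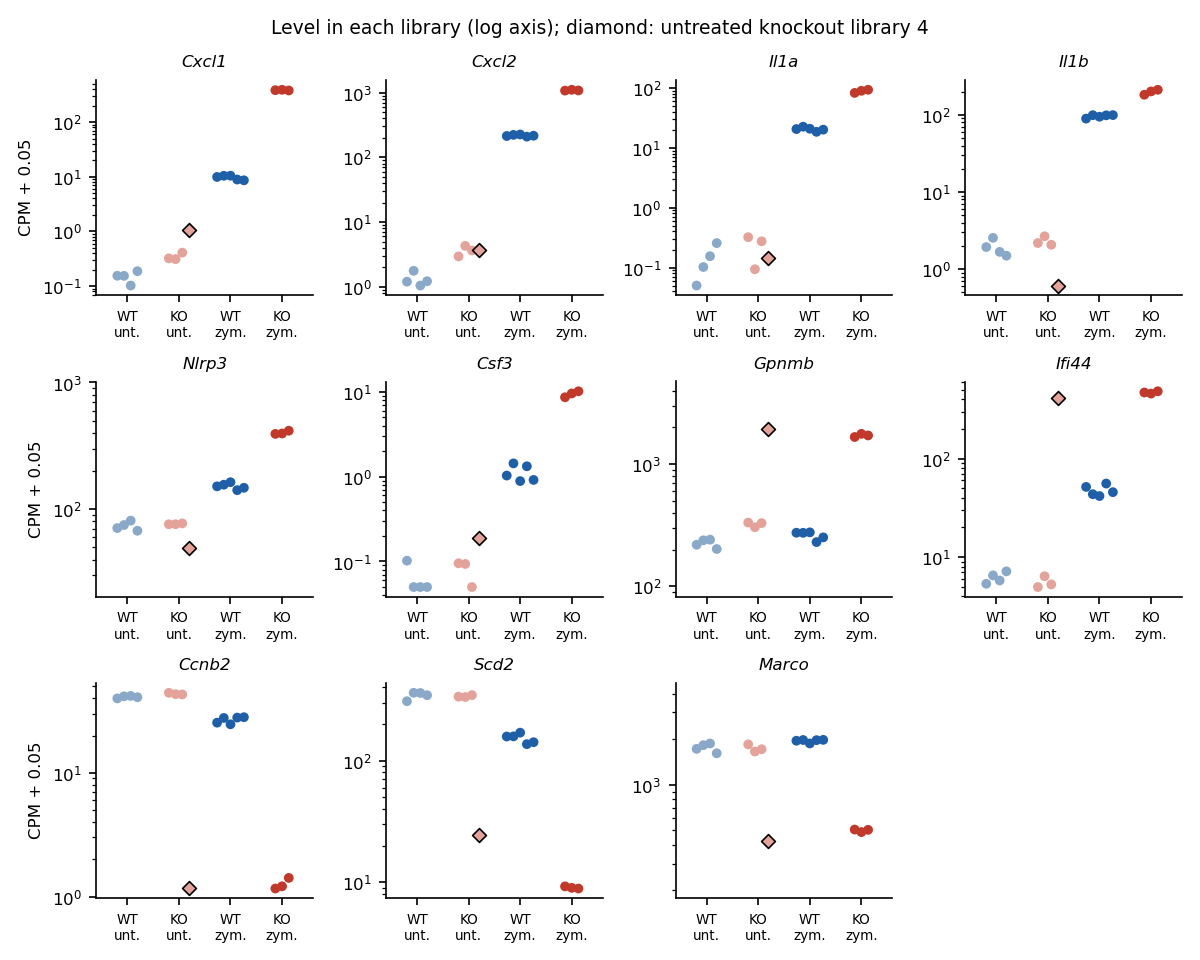
CPM plus 0.05 on a log axis for 11 genes, 1 point per library, in untreated wild type, untreated knockout, wild type with zymosan and knockout with zymosan, where untreated and zymosan libraries were scaled separately. The diamond, untreated knockout library 4, lies near the knockout zymosan libraries for Gpnmb, Ifi44, Ccnb2 and Marco, partway to them for Scd2, and at or under 4 CPM for Cxcl1, Cxcl2, Il1a, Il1b and Csf3.

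Among neutrophil-attracting chemokines, Cxcl1 and Cxcl2 rose far more with zymosan than their shift in untreated library 4, a difference in size that was not tested. Most of the listed genes encode ligands of CXCR2 that draw neutrophils, and Pf4 does not. Of 5 genes tested of 7 listed, 4 rose and 1 fell, with a median of 2.32 against 0.0066 over all genes and a median shift of 0.065 in library 4. That shift takes in Cxcl3, which was under 1 CPM in each untreated knockout library. Cxcl1 (ENSMUSG00000029380, chromosome 5 of mm10, 90891241 to 90893115) was at 383, 389 and 378 CPM in the knockout libraries and 9.86, 10.4, 10.4, 8.83 and 8.56 CPM in the wild-type libraries. The groups lie far apart, with little spread inside either (log2 fold change 5.32 ± 0.045 (SE), adjusted p 7.84e-30). In untreated cells it was near the limit of detection, at 0.271, 0.261 and 0.359 CPM in knockout libraries 1 to 3 and 1.03 CPM in library 4, a shift of 1.52. Cxcl2 was at 1076, 1108 and 1082 CPM in the knockout libraries and 214, 223, 226, 209 and 216 CPM in the wild-type libraries, again with no overlap (log2 fold change 2.32 ± 0.028 (SE), adjusted p 3.09e-27). Library 4 had 3.70 CPM of it, inside the 2.90, 4.23 and 3.59 CPM of libraries 1 to 3. Cxcl3 rose as well, from a mean of 3.10 to 20.9 CPM (log2 2.75, at 0.234 CPM in library 4 and under 1 CPM in each untreated knockout library), and the platelet chemokine gene Pf4 by less (log2 0.39). Its neighbour Ppbp fell (log2 -2.20) and was also low in library 4 (shift -2.11). The ligands of CXCR3 moved little: Cxcl10, already abundant, rose by 0.17 and Cxcl9 by 0.74, from 19.1 to 31.9 CPM, so 2 of 2 tested were higher, with a shift of 0.29 for Cxcl10 and under 1 CPM of Cxcl9 in each untreated knockout library. In a fit of all 20 libraries Cxcl10 did not pass.

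Inflammatory cytokines followed in part. Of 22 tested, 14 rose, 7 fell and 1 did not pass (median 0.58), and the median shift in library 4 was 0.48. That shift is not read for the list. It takes in Csf3, Il33, Il1a, Lif, Ifnb1 and Edn1, which were under 1 CPM in each untreated knockout library. Il1a, an alarmin of the IL-1 family, was at 82.7, 89.9 and 93.3 CPM in the knockout libraries and 20.5, 22.5, 20.8, 18.5 and 20.1 CPM in the wild-type libraries. Every knockout library exceeded every WT library by a wide margin (log2 fold change 2.11 ± 0.053 (SE), adjusted p 3.94e-21). Il1b was at 183, 202 and 212 CPM in the knockout libraries and 89.6, 99.2, 94.7, 98.8 and 99.5 CPM in the wild-type libraries, also without overlap (log2 fold change 1.05 ± 0.042 (SE), adjusted p 7.63e-17). In library 4, Il1b was lower than in its replicates, at 0.561 CPM against 2.13, 2.61 and 2.02 CPM, and Il1a was at 0.0936 CPM against 0.271, 0.0436 and 0.224 CPM. The Il6 levels were 329.6, 324 and 341 CPM in knockout against 195, 189, 194, 202 and 198 CPM in wild type, separate but closer together (log2 fold change 0.76 ± 0.03 (SE), adjusted p 4.45e-17), with 0.702 CPM in library 4 inside the 0.769, 0.654 and 0.941 CPM of its replicates.

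Csf3, Lif and Ifnb1 of the cytokine list rose from low levels in untreated cells. Csf3, which encodes G-CSF, was at 8.58, 9.51 and 10.1 CPM in the knockout libraries and 0.981, 1.38, 0.837, 1.28 and 0.865 CPM in the wild-type libraries. The gap held in every library (log2 fold change 3.13 ± 0.15 (SE), adjusted p 1.5e-15), and untreated knockout cells had at most 3 counts of it in each library, so no shift is read there. Lif rose from a mean of 3.07 to 15.3 CPM and the interferon gene Ifnb1 from 88.9 to 322 CPM. Untreated cells held under 0.5 CPM of each. Tnf, by contrast, was higher in both settings, by 1.08 with zymosan and by 0.85 in library 4. The falls included Il33, an alarmin gene that went from 37.8 to 7.67 CPM and is at the floor of 3 counts in untreated knockout cells. Edn1, the endothelin gene, fell as well (log2 -1.02), as did the IL-27 subunit gene Ebi3 (log2 -0.85, shift -1.09) and the IL-17 receptor gene Il17ra (log2 -0.81, shift 0.41).

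CC chemokines rose in 7 of 10 cases, fell in 2 and did not pass in 1 (median 0.51, median shift 0.55). Ccl2, which draws monocytes, was at 1581, 1599 and 1584 CPM in the knockout libraries and 666, 709, 681, 669 and 698 CPM in the wild-type libraries. It did not overlap between the groups (log2 fold change 1.21 ± 0.025 (SE), adjusted p 1.03e-22) and was little shifted in library 4 (0.18). Ccl3 rose by 1.41 and Ccl7 by 0.79, and both were higher in library 4 too (shifts 1.73 and 0.89). Ccl4, with the most counts, rose by 0.47 (shift 1.38). Ccl6 rose by 0.55 with a shift of 0.011. Ccl5 fell by a little (log2 -0.18) though library 4 had more of it (shift 1.91), and Ccl12 stood at 121 CPM in knockout and 129.7 CPM in WT with overlapping libraries (log2 -0.10, adjusted p 0.0326), a call lost when WT library 4 or 5 or knockout library 3 or 4 was left out (log2 fold change of Ccl12 then at an adjusted p of 0.0518, 0.0921, 0.0902 and 0.147). In a fit of all 20 libraries, which counts the spread of the untreated knockout group, Ccl4, Ccl5 and Ccl12 no longer passed.

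The inflammasome list had 7 rises, 10 falls and 2 not passed among 19 (median -0.31, median shift -0.18). Nlrp3, the sensor that assembles the inflammasome and matures IL-1 beta, was at 393, 396 and 416 CPM in the knockout libraries and 151, 156, 163, 141 and 148 CPM in the wild-type libraries. The groups were clearly apart (log2 fold change 1.40 ± 0.037 (SE), adjusted p 9.56e-21), while library 4 was lower than its replicates, at 49.7 CPM against 76.0, 76.1 and 77.2 CPM. Pycard, the adaptor that links NLRP3 to caspase-1, moved the other way, at 34.6, 32.9 and 31.1 CPM in the knockout libraries and 100.5, 101, 103, 105 and 109.5 CPM in the wild-type libraries. It fell without overlap (log2 fold change -1.66 ± 0.045 (SE), adjusted p 2.66e-20) and was lower to a like extent in library 4 (shift -1.75). Txnip, an arrestin that binds thioredoxin, fell (log2 -1.27) with no shift in library 4 (0.11), and the pyrin gene Mefv fell (log2 -1.11, shift 0.058). Nlrc4 and Naip2, an inflammasome pair that senses bacterial secretion proteins, rose by 0.84 and 0.81, and Ninj1, which ruptures the membrane of dying cells, by 0.56. Gsdme, a pore-forming gasdermin gene, fell (log2 -0.69, shift 0.04).

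Cytokine receptors split almost evenly, 12 higher and 11 lower of 25 with 2 not passed (median -0.025, median shift 0.21). Il7r, the IL-7 receptor chain, rose from a mean of 4.47 to 40.5 CPM (log2 3.18), and library 4 was higher by a like amount (shift 3.66). Csf2rb2, a chain of the IL-3 receptor, behaved likewise (log2 1.62, shift 1.77), as did Il1rap, the IL-1 receptor accessory protein gene (log2 1.06, shift 1.15). Ifngr1, the ligand-binding chain of the interferon-gamma receptor, was at 129, 128 and 129 CPM in the knockout libraries and 52.2, 54.6, 58.2, 55.7 and 54.8 CPM in the wild-type libraries. The groups are separate (log2 fold change 1.22 ± 0.037 (SE), adjusted p 2.27e-19), but library 4 was lower than its replicates (shift -0.31). Il4ra, the IL-4 receptor chain, stood at 153, 151 and 156 CPM in the knockout libraries and 380.1, 359, 382, 372 and 368 CPM in the wild-type libraries. It fell in every knockout library (log2 fold change -1.28 ± 0.031 (SE), adjusted p 2.76e-21) and was close to its replicates in library 4 (shift -0.11). Csf3r fell by 1.33, Lifr fell by 0.99 and Il6ra fell by 0.65 on the log2 scale, with shifts of -0.60, -1.70 and -0.36. Tnfrsf1b, with the most counts, rose by 0.28.

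Among 14 co-stimulatory and checkpoint genes, 8 rose, 4 fell and 2 did not pass (median 0.18, median shift 0.42). Icosl, the ligand of ICOS on T cells, rose from 14.8 to 39.3 CPM with a shift of -0.46 in library 4. The OX40 ligand gene Tnfsf4 rose from 4.64 to 15.2 CPM, with under 1 CPM in each untreated knockout library. Havcr2, which encodes TIM-3, was higher in both settings (log2 2.31, shift 2.13), and Cd69, an early activation antigen, rose by 0.85 (shift 1.01). Cd86, the ligand of CD28, was at 144, 129.9 and 127 CPM in the knockout libraries and 519.8, 484, 470.1, 523 and 479 CPM in the wild-type libraries. It fell with no overlap (log2 fold change -1.89 ± 0.043 (SE), adjusted p 7.66e-22), and Cd80 fell by less (log2 -1.01), with shifts of -0.90 and -1.23. Vsir, which encodes the checkpoint protein VISTA, fell by 0.53 and Cd200r1, an inhibitory receptor gene, fell by 0.19 on the log2 scale, though Cd200r1 did not pass in a fit of all 20 libraries, and Cd274, the PD-L1 gene, stood at 1631 against 1696 CPM without passing.

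Interferon-stimulated genes were mostly higher in knockout, and untreated library 4 was far above its replicates. These genes are switched on by type I interferon and encode antiviral proteins. Of 56 tested of 58 listed, 44 rose, 6 fell and 6 did not pass, with a median of 0.38 against 0.0066 over all genes. In library 4, 55 of 56 were shifted up and 0 down, with a median shift of 1.87, and all 44 that rose with zymosan were among those shifted up. Ifi44 was at 468, 456 and 481 CPM in the knockout libraries and 51.5, 43.5, 41.6, 55.7 and 45.6 CPM in the wild-type libraries. The groups were far apart (log2 fold change 3.30 ± 0.055 (SE), adjusted p 1.52e-24), and library 4 had 409 CPM against 4.93, 6.36 and 5.24 CPM. Ifi44l, its neighbour, rose by 6.23, and the oligoadenylate synthetase gene Oas3 by 2.51, with shifts of 8.28 and 4.21. The DNA sensor family gene Ifi205 rose by 1.75, though reads of the Oas and Ifi200 families may be shared between close copies.

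Irf7, the factor that amplifies the interferon response, was at 784, 767 and 793 CPM in the knockout libraries and 340.4, 302, 296, 339 and 319 CPM in the wild-type libraries. The libraries did not overlap (log2 fold change 1.29 ± 0.037 (SE), adjusted p 5.46e-20), and library 4 had 687 CPM against 36.8, 34.4 and 34.7 CPM. Rsad2, which encodes viperin and has the most counts of the list, rose by only 0.19, from an already high 11827 CPM to 13482 CPM. Irf9 rose by 0.12. The falls were Mx1, a dynamin-like antiviral GTPase gene (log2 -0.96), Oas2 (log2 -0.90), the ISG15-activating enzyme gene Uba7 (log2 -0.73), Samd9l (log2 -0.43) and 2 more. Mx1, Oas2 and Samd9l were nevertheless higher in library 4 (shifts 1.58, 0.65 and 1.11), and Uba7 was not (-0.27). The count of rises depends on the libraries in the fit: with all 20 libraries in 1 model it was 12, where Irf7, Irf9, Rsad2 and Samd9l did not pass, and with 19 libraries, without untreated knockout library 4, it was 44.

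MHC class I genes, which present peptides from inside the cell, rose in 19 of 22 cases and fell in 3 (median 0.42, median shift 1.02). H2-K1 was at 1920.2, 1973 and 1981 CPM in the knockout libraries and 886, 852, 875, 862 and 866 CPM in the wild-type libraries. It was higher in every knockout library (log2 fold change 1.17 ± 0.023 (SE), adjusted p 4.63e-23), and in library 4 as well (shift 1.55). B2m, the light chain of class I, rose by 0.79 and H2-Q4 by 1.15. H2-Q6 and H2-Q7 rose by 4.23 and 2.60, but their near-identical sequences share reads, so each value is uncertain. The falls were Nlrc5, the transactivator of class I genes (log2 -0.65, shift 1.37), the proteasome activator gene Psme2 (log2 -0.43, shift -0.45) and H2-T22 (log2 -0.12, with overlapping libraries and a shift of 1.18, and not passed in a fit of all 20 libraries). Class II genes numbered 8 tested, with 3 higher, 1 lower and 4 not passed (median 0.13, median shift 0.39). Ctss, the protease that trims the invariant chain, rose by 1.05 and Cd74, the invariant chain, fell (log2 -0.66), with shifts of 1.10 and -0.025. H2-DMa and H2-DMb1, which load peptides, rose by 0.59 and 0.48.

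The interferon-induced GTPases, which attack vacuoles that hold microbes, leaned down with zymosan and up in library 4: 3 of 15 rose, 8 fell and 4 did not pass (median -0.17), against a median shift of 0.51. Gbp4 was at 26.5, 22.8 and 25.3 CPM in the knockout libraries and 95.1, 69.2, 64.7, 101 and 76.6 CPM in the wild-type libraries. It varied within WT but stayed above every knockout library (log2 fold change -1.71 ± 0.11 (SE), adjusted p 1.19e-12), and it had no shift in library 4 (0.039). Gbp2 fell by 0.60, Igtp fell by 0.53 and Gbp7 fell by 0.47 on the log2 scale, and Gbp5, with the most counts, stood at 1483 against 1485 CPM without passing. Gvin1 and Iigp1 rose by 0.61 and 0.37, calls that a fit of all 20 libraries did not make. Gbp2b, a guanylate-binding protein gene outside this list, rose by 4.74 (shift 4.98), with the uncertainty over copies given above. Of 9 interferon regulatory factors, 3 rose, 4 fell and 2 did not pass (median -0.0077, median shift 0.27). Beside Irf7, Irf1 rose by 0.10 and Irf9 as above, neither of them passed with all 20 libraries, while Irf8 (log2 -0.44), Irf2 (log2 -0.43), Irf5 (log2 -0.27) and Irf3 (log2 -0.24) fell. Among 16 genes of cytokine signal suppression and JAK-STAT signalling, 4 rose, 6 fell and 6 did not pass (median -0.02, median shift 0.055). Socs3, a feedback inhibitor of IL-6 signalling, fell (log2 -0.54, shift 0.43), as did Stat3 (log2 -0.80, shift -0.31), Jak3 (log2 -0.93, shift -0.82) and Stat5a (log2 -0.68, shift -0.37). Stat6 rose by 0.23 and Pim3 by 0.45.

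Mitosis genes were lower without exception. They are expressed from late S phase through division. All 45 of 45 tested fell, with a median of -3.08, and all 45 were shifted down in library 4 (median shift -3.39). Ccnb2 (ENSMUSG00000032218, chromosome 9 of mm10, 70407692 to 70421547), a cyclin of entry into mitosis, was at 1.11, 1.16 and 1.36 CPM in the knockout libraries and 25.4, 27.7, 24.6, 27.9 and 28.1 CPM in the wild-type libraries. Every knockout library held a small fraction of the WT level (log2 fold change -4.45 ± 0.11 (SE), adjusted p 4.76e-21). Library 4 had 1.12 CPM against 44.3, 43.2 and 43.0 CPM. Mki67, the proliferation marker Ki-67, was at 28.0, 19.02 and 24.8 CPM in the knockout libraries and 121, 143, 130.0, 139.8 and 136 CPM in the wild-type libraries. The fall was present in all 3 libraries (log2 fold change -2.49 ± 0.075 (SE), adjusted p 1.8e-19, shift -3.87). Ube2c, which marks mitotic cyclins for destruction, fell by 4.12, Birc5, which encodes survivin, fell by 4.28, Cenpf, a kinetochore gene, fell by 4.32, Ckap2l fell by 4.40, Nusap1, a spindle gene, fell by 4.01 and Ccnb1 fell by 4.09 on the log2 scale. Troap, named here because it was at most 3 counts in every knockout library and chosen after its values were seen, was at least 4.35 lower on the log2 scale, a bound set against 3 counts per library. With Troap at that bound the median is unchanged.

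Genes of DNA replication and the G1/S transition were lower in 36 of 47 cases, higher in 5 and not passed in 6 (median -0.64, median shift -0.83). Rrm2, a subunit of ribonucleotide reductase, was at 2.83, 3.33 and 2.90 CPM in the knockout libraries and 21.8, 25.8, 22.1, 19.04 and 25.4 CPM in the wild-type libraries. It was low in all knockout libraries (log2 fold change -2.92 ± 0.12 (SE), adjusted p 6.84e-17) and in library 4 (shift -2.95). Tk1, a thymidine kinase gene, fell by 2.84, Mcm10 fell by 2.03 and the cyclin gene Ccne1 fell by 1.61 on the log2 scale. Pcna, the sliding clamp with the most counts of the list, rose by 0.41 (shift 1.07), and Rfc3 and Mcm2 rose by 0.80 and 0.34. The G1 cyclin gene Ccnd1 was at 518, 518 and 523 CPM in the knockout libraries and 71.2, 72.3, 68.9, 55.5 and 67.1 CPM in the wild-type libraries. It rose with a wide gap (log2 fold change 2.96 ± 0.049 (SE), adjusted p 1.46e-24), more than its shift in library 4 (1.10).

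Of 25 p53 targets and cell cycle inhibitors, 9 rose, 10 fell and 6 did not pass (median -0.022, median shift 0.20). Cdkn1a, which encodes the inhibitor p21, rose by 0.89, Gadd45a by 1.61 and the kinase gene Plk2 by 1.11, each with a larger shift in library 4 (1.37, 1.80 and 2.56). Gadd45g rose by 1.44 without one (-0.12). Bbc3, which encodes the death protein PUMA, was at 28.9, 28.1 and 25.4 CPM in the knockout libraries and 99.1, 100.3, 106, 91.8 and 98.6 CPM in the wild-type libraries. It fell in every knockout library (log2 fold change -1.85 ± 0.052 (SE), adjusted p 4.35e-20) and was higher in library 4 (shift 0.64). The death receptor gene Fas was at 28.5, 27.6 and 28.4 CPM in the knockout libraries and 108, 109, 115, 109 and 105 CPM in the wild-type libraries. The groups do not overlap (log2 fold change -1.96 ± 0.043 (SE), adjusted p 4.74e-22), and the shift was -0.75. Pmaip1, which encodes NOXA, fell by 1.12 on the log2 scale (shift 0.14), and the inhibitor Cdkn2c fell by 1.81 (shift -3.24). Senescence-associated genes, a list that shares chemokines and proteases with others here, had 13 rises, 4 falls and 1 not passed of 18 (median 1.04, median shift 0.55). Its falls were Lmnb1, which encodes lamin B1 (log2 -1.75), Hmgb1 (log2 -0.50), Igfbp4 (log2 -1.55) and Timp1 (log2 -1.80).

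Genes of lipid synthesis were lower. Of 23 sterol synthesis genes, 20 fell, 2 rose and 1 did not pass (median -0.72, median shift -0.66). Fdps fell by 2.04, Mvd fell by 1.68 and Idi1 fell by 1.34 on the log2 scale, all enzymes of isoprenoid building, and the sensor gene Insig1 fell by 0.56. Hmgcs1, which encodes an early step, rose by 0.19. Fatty acid synthesis had 12 falls, 1 rise and 6 not passed of 19 (median -0.55, median shift -0.34). Scd2, a desaturase gene, was at 9.23, 8.98 and 8.86 CPM in the knockout libraries and 158, 158, 169.6, 136 and 142 CPM in the wild-type libraries. It was lower by a wide margin (log2 fold change -4.08 ± 0.075 (SE), adjusted p 1.23e-23), as in library 4 (shift -3.78). Fads2 fell by 3.25, Acsl5 fell by 1.31 and the synthase gene Fasn fell by 1.20 on the log2 scale, while Acsl1 rose by 0.36.

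Targets of the sterol receptor LXR and cholesterol export genes went both ways, 8 up and 6 down of 15 with 1 not passed (median 0.29, median shift 0.26). Apoe, which carries exported lipid, was at 1599.5, 1586 and 1558 CPM in the knockout libraries and 314, 301, 328, 275 and 295 CPM in the wild-type libraries. It rose strongly (log2 fold change 2.38 ± 0.036 (SE), adjusted p 3.51e-25), as in library 4 (shift 2.46). Mylip rose by 1.69, Npc2, which hands cholesterol out of the lysosome, by 1.18 and the lipase gene Lpl by 0.68. The export pumps Abca1 and Abcg1 fell (log2 -0.52 and -0.83), with shifts of -0.47 and 0.054, and Abca9 fell by 2.66 and Lpcat3 fell by 0.46 on the log2 scale.

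Most transcripts of the mitochondrial genome were lower. Of 11 tested, 9 fell, 0 rose and 2 did not pass (median -1.01, median shift -1.17). mt-Co1, a core subunit of cytochrome oxidase with the most counts, was at 3470.0, 3264 and 4132 CPM in the knockout libraries and 7111, 7216, 6962, 8257 and 7749.9 CPM in the wild-type libraries. The knockout range lies under the WT range (log2 fold change -1.04 ± 0.055 (SE), adjusted p 1.38e-14), and library 4 had 3648 CPM against 7806, 8369.9 and 8880.1 CPM. mt-Cytb was at 307, 291 and 367 CPM in the knockout libraries and 1006, 992, 976, 1168 and 1109 CPM in the wild-type libraries, also separate (log2 fold change -1.71 ± 0.06 (SE), adjusted p 4.82e-18). mt-Nd5, mt-Nd6 and mt-Nd4 fell (log2 -1.50, -1.44 and -1.33). How far RNA quality or the nuclear share of RNA differ between libraries was not tested, as 1 of the 9 transcripts listed for it is in the table and none passed the filter.

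Nuclear genes of the respiratory chain moved much less. Complex I had 19 falls, 5 rises and 13 not passed of 37 (median -0.14, median shift -0.25), from Ndufs8 (log2 -0.89) to Ndufs7 (log2 0.36) and Ndufa12 (log2 0.35). Ndufv3, Ndufb11 and Ndufc2 also fell (log2 -0.58, -0.50 and -0.44). Complexes II to V had 27 falls, 4 rises and 9 not passed of 40 (median -0.19, median shift -0.31). Cox5a and Cox7a2l fell (log2 -0.69 and -0.69), Uqcrh fell by 0.51 and Atp5o fell by 0.44 on the log2 scale, while Cyc1 rose by 0.23 and Uqcrc2 by 0.19. No member of these nuclear lists fell by a log2 of 1 or more.

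In the TCA cycle, 13 of 24 genes fell, 4 rose and 7 did not pass (median -0.11, median shift -0.15). Fh1, fumarate hydratase, fell by 0.72, the malate dehydrogenase gene Mdh1 fell by 0.40 and Idh3g, a subunit of an enzyme that calcium activates, fell by 0.37 on the log2 scale. Acod1, which makes itaconate from a cycle intermediate, rose by 0.14 to 5427 CPM, a call that a fit of all 20 libraries did not make. Of 13 genes of pyruvate dehydrogenase, its kinases and phosphatases and the pyruvate carrier, 5 rose, 4 fell and 4 did not pass (median -0.043, median shift 0.15). The kinase gene Pdk1 rose by 0.71 (shift 0.67), the calcium-independent phosphatase gene Pdp2 by 0.59 (shift -0.012) and Dlat by 0.29, and Mpc1 and Pdha1 fell (log2 -0.36 and -0.29). Fatty acid oxidation had 13 falls, 3 rises and 7 not passed of 23 (median -0.17, median shift -0.079). Its gate Cpt1a rose by 0.95 and the carrier gene Slc25a20 by 0.71, each with a like shift (1.10 and 0.70). Ppard, a nuclear receptor gene, fell by 1.03 (shift 0.042) and Etfb, which passes on electrons, fell by 0.54 on the log2 scale.

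Cytosolic ribosomal protein genes leaned down: 60 of 82 fell, 7 rose and 15 did not pass (median -0.17, median shift -0.25). Rpl22l1, a paralogue, fell by 1.57 on the log2 scale, and Rps9, Rpl10a and Rpl3 fell (log2 -0.71, -0.65 and -0.60). Rplp0 fell by 0.32, while Rpl7l1 and Rps27 rose by 0.22 and 0.18. Mitochondrial ribosomal proteins were near balance, 20 up, 23 down and 34 not passed of 77 (median -0.011, median shift -0.049), from Mrpl33 (log2 -0.81) to Mrpl1 (log2 0.70). Of 21 genes of mitochondrial dynamics and mitophagy, 11 fell, 7 rose and 3 did not pass (median -0.12, median shift 0.11). The fission GTPase gene Dnm1l rose by 0.45 and the fusion gene Mfn2 fell by 0.44 on the log2 scale, the mitophagy receptor gene Bnip3 rose by 0.72 (shift 0.92), and Optn, a mitophagy adaptor gene, fell by 1.12 (shift -1.23). Chaperones and proteases of the mitochondrial unfolded protein response rose in 9 of 13 cases, with 1 fall and 3 not passed (median 0.32, median shift 0.17), among them the chaperone gene Hspa9 (log2 0.62), Dnaja3 (log2 0.65) and the protease gene Lonp1 (log2 0.58). The fall was of Hspe1 (log2 -0.20).

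**Figure D3:**
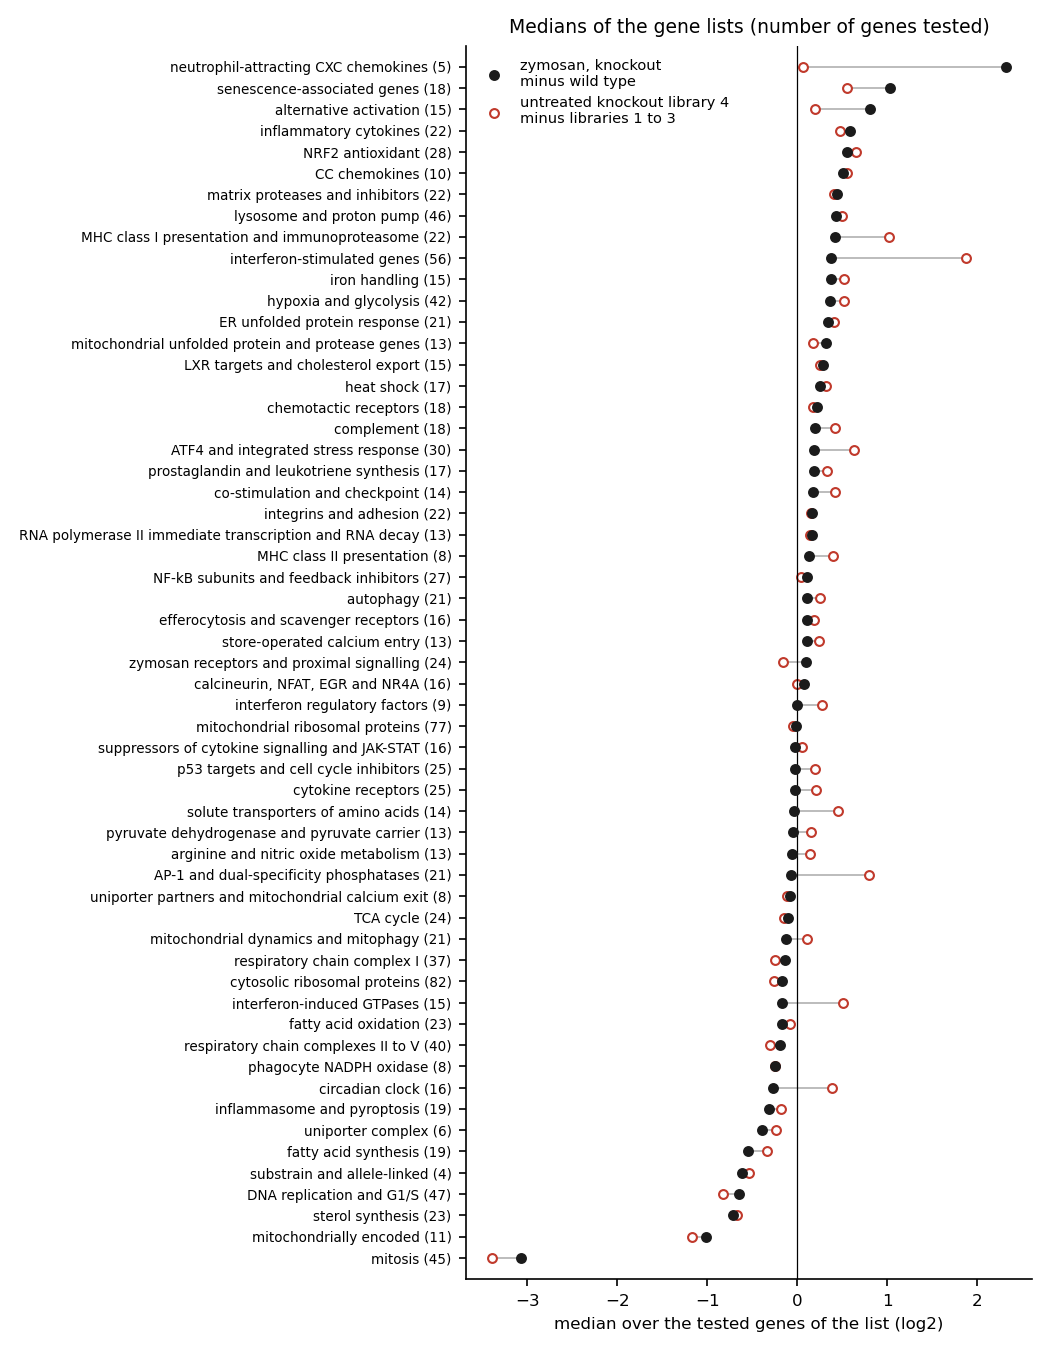
For each gene list, with the number of its genes tested, the filled point is the median log2 fold change of knockout over wild type with zymosan, and the open point is the median shift of untreated knockout library 4. Genes under 1 CPM in untreated knockout cells, where a shift is uncertain, are counted in the open point. Mitosis lies lowest for both, the neutrophil-attracting chemokines lie highest with zymosan and near 0 in library 4, and the interferon-stimulated genes lie farther from 0 in library 4.

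Glycolytic and hypoxia-inducible genes were mostly higher: 26 of 42 rose, 8 fell and 8 did not pass (median 0.36, median shift 0.52). Pkm, the pyruvate kinase, with the most counts of them, was at 2998, 3131 and 3122 CPM in the knockout libraries and 1499, 1472, 1499, 1424 and 1489 CPM in the wild-type libraries. It was higher by about the same amount in every library (log2 fold change 1.06 ± 0.024 (SE), adjusted p 5.23e-22) and in library 4 (shift 1.19). Epas1, which encodes HIF-2 alpha, rose by 2.26, its hydroxylase gene Egln3 by 2.25 and the collagen hydroxylase gene P4ha2 by 2.49, with shifts of 1.82, 1.71 and 1.95. Adm, the adrenomedullin gene, rose from 4.22 to 16.8 CPM with a shift of 0.50. Ndrg1 was the exception in size, at 188, 205 and 205 CPM in the knockout libraries and 1226, 1212, 1228, 1107 and 1185 CPM in the wild-type libraries. It fell far below the WT range (log2 fold change -2.58 ± 0.038 (SE), adjusted p 2e-25), as in library 4 (shift -2.66). Pfkfb3 and Hk2, which control the entry of glucose into glycolysis, fell (log2 -0.61 and -0.40).

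Antioxidant genes under NRF2 rose in 23 of 28 cases, fell in 3 and did not pass in 2 (median 0.56, median shift 0.65), and 19 of the rises were shifted up in library 4. Srxn1, sulfiredoxin, was at 384, 397 and 381 CPM in the knockout libraries and 132, 119, 123, 111 and 123 CPM in the wild-type libraries. The groups were far apart (log2 fold change 1.67 ± 0.038 (SE), adjusted p 6.63e-22, shift 1.90). Gclm, which limits glutathione synthesis, was at 344, 348 and 333 CPM in the knockout libraries and 124, 114, 119, 125 and 121 CPM in the wild-type libraries, also separate (log2 fold change 1.503 ± 0.033 (SE), adjusted p 2.78e-22, shift 0.77). The cystine importer gene Slc7a11 rose by 1.28, Taldo1 of the pentose phosphate pathway by 1.18, the haem oxygenase gene Hmox1 by 0.96 and the ferritin gene Fth1 by 0.69. The falls were G6pdx (log2 -0.80) and Tkt (log2 -0.59), also of the pentose phosphate pathway, and the superoxide dismutase gene Sod2 (log2 -0.22).

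Stress pathways leaned up. Of 30 genes of ATF4 and the integrated stress response, 16 rose, 10 fell and 4 did not pass (median 0.19, median shift 0.63). Ddit3, which encodes CHOP, rose by 1.31 and the cytokine gene Gdf15 by 1.20, with larger shifts in library 4 (1.79 and 2.87). Cebpb, a factor of myeloid inflammation, was at 86.2, 88.8 and 91.6 CPM in the knockout libraries and 222, 218, 221, 213 and 217 CPM in the wild-type libraries. It fell in all knockout libraries (log2 fold change -1.29 ± 0.034 (SE), adjusted p 1.07e-20) while library 4 was higher than its replicates (shift 0.88). The folate enzyme genes Aldh1l2 and Shmt2 fell (log2 -1.11 and -0.55). The unfolded protein response of the endoplasmic reticulum had 14 rises, 3 falls and 4 not passed of 21 (median 0.35, median shift 0.41). The chaperone gene Hspa5 rose by 0.75, Creld2 by 0.98, Dnajb9 by 0.92, the sensor gene Ern1 by 0.87 and Hyou1 by 0.86, and Herpud1 fell by 0.86 on the log2 scale. Heat shock genes rose in 13 of 17 cases, fell in 2 and did not pass in 2 (median 0.25, median shift 0.32). Hspa1a and Hspa1b, which share most of their sequence and so their reads, rose by 1.49 and 1.59, Hsph1 rose by 1.07, and the constitutive Hspa8, with the most counts, fell by 0.54 on the log2 scale.

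Amino acid transporters divided, 6 up, 6 down and 2 not passed of 14 (median -0.032, median shift 0.46). Slc7a8 and Slc3a2 rose by 1.004 and 0.96, and Slc43a2 by 0.87, while Slc7a7 and Slc36a4 fell (log2 -0.94 and -0.73). Arginine and nitric oxide metabolism had 4 rises, 5 falls and 4 not passed of 13 (median -0.056, median shift 0.14). The inducible nitric oxide synthase gene Nos2 rose from 29.9 to 46.7 CPM (log2 0.65). Ass1, which rebuilds arginine from citrulline, was at 60.9, 62.3 and 61.2 CPM in the knockout libraries and 148, 137, 132, 167 and 147 CPM in the wild-type libraries. It fell with zymosan (log2 fold change -1.25 ± 0.056 (SE), adjusted p 5.65e-16) and was higher in library 4 (shift 0.99). Iron handling genes rose in 9 of 15 cases, fell in 4 and did not pass in 2 (median 0.38, median shift 0.52). Slc40a1, the iron exporter ferroportin, rose from 8.999 to 50.3 CPM (shift 3.37), and ceruloplasmin, Cp, fell from 358 to 85.2 CPM (shift -1.74). Lcn2, which binds bacterial siderophores, fell by 2.03 on the log2 scale.

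Lysosomal genes were higher in 32 of 46 cases, lower in 8 and not passed in 6 (median 0.43, median shift 0.50), and 23 of the rises were shifted up in library 4. Gpnmb, a glycoprotein of lysosomes under stress, was at 1667, 1769 and 1716 CPM in the knockout libraries and 275, 274, 276, 230.1 and 251 CPM in the wild-type libraries. The knockout libraries all lay above the WT range by a factor of several (log2 fold change 2.72 ± 0.041 (SE), adjusted p 3.63e-25), and library 4 had 1926 CPM against 333, 304 and 329 CPM. Ctsl, a cathepsin gene, was at 3105, 3215 and 3249 CPM in the knockout libraries and 750.2, 735, 751, 711 and 724 CPM in the wild-type libraries, separate from WT (log2 fold change 2.12 ± 0.025 (SE), adjusted p 3.06e-27, shift 1.95). Cd68 rose by 1.89, the acid lipase gene Lipa by 1.64 and Ctsb, with the most counts, by 1.20. The falls held subunits of the proton pump that acidifies the lysosome, Atp6v0d1 (log2 -0.66), Atp6v0b (log2 -0.51) and Atp6v1d (log2 -0.34), and the glucuronidase gene Gusb (log2 -0.54). Autophagy genes rose in 10 of 21 cases, fell in 2 and did not pass in 9 (median 0.11, median shift 0.26). Sqstm1, the cargo receptor p62, was at 3899, 4095 and 3977 CPM in the knockout libraries and 1459.6, 1349.5, 1358, 1281 and 1317 CPM in the wild-type libraries. It rose in every knockout library (log2 fold change 1.56 ± 0.03 (SE), adjusted p 2.94e-23, shift 2.16), Atg13 rose by 0.67, and Map1lc3b, which encodes LC3B, fell by 0.36 on the log2 scale.

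Receptors for dying cells and modified lipid moved strongly in both directions, 8 up, 6 down and 2 not passed of 16 (median 0.11, median shift 0.19). All 8 rises and all 6 falls had a shift the same way in library 4. Trem2, a lipid receptor of macrophages, was at 280.1, 285 and 271 CPM in the knockout libraries and 35.1, 38.9, 39.3, 33.4 and 36.8 CPM in the wild-type libraries. The groups lie far apart (log2 fold change 2.92 ± 0.042 (SE), adjusted p 1e-25, shift 2.24). Msr1 rose by 1.71, the receptor gene Axl by 1.41 and its ligand gene Gas6 by 1.22. Marco, a scavenger receptor for particles, was at 504, 485 and 502 CPM in the knockout libraries and 1951, 1973, 1872, 1968 and 1978 CPM in the wild-type libraries. It fell far below WT (log2 fold change -1.97 ± 0.027 (SE), adjusted p 6.41e-26), with 421 CPM in library 4 against 1846, 1655 and 1714 CPM. The bridging ligand gene Pros1 fell by 1.70, the oxidized LDL receptor gene Olr1 fell by 1.03 and Elmo1, which drives engulfment, fell by 0.75 on the log2 scale. Genes of alternative activation rose in 9 of 15 cases, fell in 4 and did not pass in 2 (median 0.81, median shift 0.20). The folate receptor gene Folr2 rose by 2.18 and Cd36 by 0.81, while the lectin genes Clec10a and Mrc1 fell (log2 -1.60 and -0.36). Complement genes numbered 9 up, 6 down and 3 not passed of 18 (median 0.19, median shift 0.42). C1qa, C1qb and C1qc, which form the recognition molecule C1q, rose by 0.91, 0.53 and 0.70, the receptor gene C3ar1 by 0.99, and Cfb and Cfp of the alternative pathway fell (log2 -1.29 and -0.98).

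Matrix proteases and their inhibitors rose in 12 of 22 cases, fell in 6 and did not pass in 4 (median 0.45, median shift 0.41). Spp1, osteopontin, was at 1696, 1686 and 1659.7 CPM in the knockout libraries and 277, 285, 291, 258 and 267 CPM in the wild-type libraries. The rise was uniform over the libraries (log2 fold change 2.61 ± 0.031 (SE), adjusted p 3.09e-27, shift 2.49). Plau, urokinase, was at 177, 176 and 168 CPM in the knockout libraries and 24.5, 27.2, 27.2, 21.1 and 25.2 CPM in the wild-type libraries, separate as well (log2 fold change 2.79 ± 0.051 (SE), adjusted p 1.15e-23, shift 1.68). Adam8 rose by 2.54, fibronectin, Fn1, by 2.50 and Mmp13 by 1.88. Timp1, an inhibitor of metalloproteases, fell from 11.6 to 3.33 CPM, the opposite of its shift in library 4 (2.25). Mmp9 and Mmp14 fell (log2 -1.60 and -0.72).

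Integrins and adhesion genes had 12 rises, 8 falls and 2 not passed of 22 (median 0.16, median shift 0.16). Vcam1, a ligand for leukocyte integrins, was at 59.9, 64.0 and 63.6 CPM in the knockout libraries and 4.36, 3.93, 4.32, 4.20 and 3.85 CPM in the wild-type libraries. It was low in WT and raised in every knockout library (log2 fold change 3.92 ± 0.063 (SE), adjusted p 9.83e-25, shift 2.37). Itgam, the alpha chain of complement receptor 3, which binds zymosan, was at 231, 232 and 243 CPM in the knockout libraries and 762, 764, 759, 740.3 and 727 CPM in the wild-type libraries. It fell in all 3 libraries (log2 fold change -1.67 ± 0.03 (SE), adjusted p 6.05e-24, shift -1.73), as did its partner Itgb2 (log2 -1.03) and Itgal (log2 -1.14). Itgax, Itgb7 and the tetraspanin gene Cd9 rose by 2.01, 2.11 and 2.24, and Pecam1 fell by 1.46 on the log2 scale. Chemotactic receptors rose in 9 of 18 cases, fell in 6 and did not pass in 3 (median 0.21, median shift 0.17). Ccr3 rose by 2.35 (shift 2.13) and Ccrl2 by 0.81, while Ptafr, the receptor of platelet-activating factor, fell by 0.80 on the log2 scale (shift 0.67) and Fpr2, a formyl peptide receptor, fell by 0.47 (shift -1.28).

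The receptors that sense zymosan and their proximal signalling genes split, 12 up, 11 down and 1 not passed of 24 (median 0.093, median shift -0.16). Tlr2 rose by 0.52, and its partner Tlr1 fell by 0.96 on the log2 scale (shifts -0.48 and -1.26). Clec4n, which encodes Dectin-2, a receptor of fungal mannan, was at 6.36, 7.10 and 5.88 CPM in the knockout libraries and 23.7, 20.9, 21.99, 24.99 and 22.7 CPM in the wild-type libraries. It fell in every knockout library (log2 fold change -1.83 ± 0.085 (SE), adjusted p 1.06e-15, shift -1.45), while its neighbour Clec4d rose (log2 1.01, shift 1.44). Clec5a, a lectin that signals through DAP12, was at 25.2, 27.8 and 25.2 CPM in the knockout libraries and 14.9, 16.1, 13.9, 15.4 and 13.9 CPM in the wild-type libraries. It rose without overlap (log2 fold change 0.81 ± 0.065 (SE), adjusted p 5.6e-11) and had no shift in library 4 (-0.027). Irak2, a kinase of Toll-like receptor signalling, rose by 0.76 and Cd14 by 0.33. Of 8 genes of the phagocyte oxidase, 3 rose and 5 fell (median -0.25, median shift -0.25). Rac2, the GTPase that activates it, was at 658, 697 and 689 CPM in the knockout libraries and 1838, 1901, 1892, 1836 and 1845 CPM in the wild-type libraries. It was much lower in knockout (log2 fold change -1.45 ± 0.027 (SE), adjusted p 1.03e-23, shift -1.32), and Cyba fell (log2 -0.35), with Ncf1, Cybb and the proton channel gene Hvcn1 higher by 0.40, 0.26 and 0.50.

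Genes of prostaglandin and leukotriene synthesis had 9 rises, 5 falls and 3 not passed of 17 (median 0.18, median shift 0.33). Ptgs2, the inducible cyclooxygenase, was at 418, 417 and 448 CPM in the knockout libraries and 191, 187, 179, 195 and 181 CPM in the wild-type libraries. It rose in each knockout library (log2 fold change 1.20 ± 0.033 (SE), adjusted p 3e-20), and library 4 was above its replicates at a low level (5.29 against 0.950, 1.39 and 1.12 CPM). The thromboxane synthase gene Tbxas1 rose by 1.89, the prostacyclin receptor gene Ptgir by 1.84 and the synthase gene Ptges by 1.30. Ptgs1, the constitutive cyclooxygenase, Hpgds and Lta4h fell (log2 -1.39, -0.77 and -0.39).

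Regulators of NF-kB showed 15 rises, 9 falls and 3 not passed of 27 (median 0.11, median shift 0.041). Ikbkg, which encodes NEMO, rose by 1.64 and the inhibitor gene Nfkbie by 1.22, with shifts of 1.38 and 1.63. Bcl3 and Nfkbid, atypical nuclear inhibitors, fell (log2 -1.13 and -1.09), and the kinase genes Ikbke and Map3k14 fell (log2 -0.97 and -0.78). AP-1 factors and dual-specificity phosphatases leaned down with zymosan and up in library 4, with 7 rises, 12 falls and 2 not passed of 21 (median -0.068, median shift 0.80). Batf3 and Batf fell (log2 -2.59 and -1.97), with shifts of -2.62 and -1.33. Fosl2 was at 12.4, 13.5 and 12.9 CPM in the knockout libraries and 42.9, 43.4, 48.3, 38.0 and 41.1 CPM in the wild-type libraries. It fell in every knockout library (log2 fold change -1.72 ± 0.072 (SE), adjusted p 1.37e-16) and was not lower in library 4 (shift 0.31), and Dusp16, a phosphatase of JNK, fell by 1.02 with a shift of 0.16. Dusp4, which switches off ERK, rose by 2.25, Fosl1 by 1.29 and Jun by 0.53, with shifts of 2.70, 2.25 and 0.64.

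Calcium-regulated factors were divided. Of 16 genes of calcineurin, NFAT, EGR and NR4A, 7 rose, 4 fell and 5 did not pass (median 0.075, median shift -0.0043). Rcan1, a feedback inhibitor of calcineurin and a target of NFAT, was at 327, 326 and 323 CPM in the knockout libraries and 162, 159, 164, 128 and 147 CPM in the wild-type libraries. It rose in all knockout libraries (log2 fold change 1.10 ± 0.05 (SE), adjusted p 8.69e-16, shift 1.23), and Egr1 rose by 0.72. Egr3 and Nr4a3 fell (log2 -1.15 and -0.60), with shifts of -2.10 and -1.63. Store-operated calcium entry and calcium release genes rose in 8 of 13 cases, fell in 3 and did not pass in 2 (median 0.10, median shift 0.24). Itpr3, Itpr1 and Itpr2, the channels that release calcium from the endoplasmic reticulum, rose by 1.47, 0.89 and 0.71, and the plasma membrane pump gene Atp2b4 by 1.93. Atp2a3, a pump that refills the store, was at 2.83, 3.57 and 2.81 CPM in the knockout libraries and 20.6, 22.96, 22.8, 20.2 and 21.5 CPM in the wild-type libraries. It fell far below WT (log2 fold change -2.82 ± 0.098 (SE), adjusted p 3.46e-18, shift -2.65), and Plcg2, which makes the messenger that opens these channels, fell by 0.46 on the log2 scale.

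Clock genes fell in 10 of 16 cases, rose in 4 and did not pass in 2 (median -0.27), against a median shift of 0.39 in library 4, where 5 of those lower with zymosan were higher. Per1 fell by 0.93 (shift 0.82), Rora fell by 1.05 (shift 0.85), Dbp fell by 0.88 (shift -0.14) and Nr1d2 fell by 0.32 (shift 0.70) on the log2 scale, and Bhlhe41 rose by 0.82. Genes of transcription elongation and mRNA decay rose in 7 of 13 cases, fell in 1 and did not pass in 5 (median 0.16, median shift 0.14), with the elongation factor gene Ell2 (log2 0.78) and the deadenylation scaffold gene Cnot1 (log2 0.49) the largest and Cdk9 lower (log2 -0.27). Among 4 genes listed because they differ between mouse strains or substrains, 3 fell and 1 rose (median -0.61, median shift -0.53). Nnt, a mitochondrial transhydrogenase gene with a deletion in C57BL/6J mice, was at 14.5, 15.1 and 16.1 CPM in the knockout libraries and 25.2, 27.8, 26.0, 24.9 and 24.4 CPM in the wild-type libraries. It was present in all libraries and lower in knockout (log2 fold change -0.75 ± 0.065 (SE), adjusted p 2.14e-10, shift -1.003). Wdfy1 and Cyfip2 fell (log2 -0.50 and -0.72), and Ide rose by 0.38. The part of strain background in the comparison was not tested.

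Promoters were read for the mitosis, interferon-stimulated and neutrophil-attracting chemokine lists and for the inflammatory cytokines, as a description of letters and not of binding. The windows are the RefSeq promoters of the GRCm38.p6 build, 250 bases before to 50 bases after the start, searched on both strands, with the first window listed for each gene. TTTGAA, the core of the cell cycle homology region found at mitosis genes, was present in 30 of 38 mitosis genes with a window (78.9%), in 13 of 44 interferon-stimulated genes (29.5%), in 0 of 5 neutrophil-attracting chemokine genes, in 0 of 15 inflammatory cytokine genes, in 11.9% of 8852 tested genes with a window and in 18.1% of all 27025 genes. GAAANNGAA, the core of the interferon-stimulated response element, was present in 22 of 44 interferon-stimulated genes (50%), 5 of 38 mitosis genes (13.2%), 0 of 5 chemokine genes, 1 of 15 cytokine genes (6.67%), 7.50% of tested genes and 8.57% of all. GGGANTTTC, a form of the kappa B site, was present in 3 of 5 neutrophil-attracting chemokine genes (60%), 1.03% of tested genes, 1.15% of all, in 2 of 15 inflammatory cytokine genes (13.3%), in 1 of 38 mitosis genes (2.63%) and in 0 of 44 interferon-stimulated genes. For each motif the 2 named genes with the highest level that hold it in the 150 bases before the start are shown 5′ to 3′ on the gene's strand, with the motif or its reverse complement in capitals. They are Mki67 (chr7:135716380-135716529, minus strand), Ube2c (chr2:164769779-164769928, plus strand), Rsad2 (chr12:26456453-26456602, minus strand), Ifi205 (chr1:174031756-174031905, minus strand), Cxcl1 (chr5:90891095-90891244, plus strand) and Cxcl2 (chr5:90903749-90903898, plus strand).
Mki67: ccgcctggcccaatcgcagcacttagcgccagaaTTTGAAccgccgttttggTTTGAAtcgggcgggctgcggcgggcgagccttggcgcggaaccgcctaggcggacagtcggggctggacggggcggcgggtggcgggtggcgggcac
Ube2c: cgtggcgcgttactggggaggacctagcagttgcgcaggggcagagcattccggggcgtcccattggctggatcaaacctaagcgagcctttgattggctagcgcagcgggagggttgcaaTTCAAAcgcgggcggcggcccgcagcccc
Rsad2: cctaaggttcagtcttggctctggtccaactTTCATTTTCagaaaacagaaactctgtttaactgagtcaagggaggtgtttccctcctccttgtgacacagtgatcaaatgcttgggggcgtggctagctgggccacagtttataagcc
Ifi205: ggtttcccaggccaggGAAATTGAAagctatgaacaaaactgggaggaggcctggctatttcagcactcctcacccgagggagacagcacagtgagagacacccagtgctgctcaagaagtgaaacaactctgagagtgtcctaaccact
Cxcl1: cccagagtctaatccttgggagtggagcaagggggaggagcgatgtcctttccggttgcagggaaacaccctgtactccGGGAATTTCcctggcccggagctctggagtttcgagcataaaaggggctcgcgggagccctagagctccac
Cxcl2: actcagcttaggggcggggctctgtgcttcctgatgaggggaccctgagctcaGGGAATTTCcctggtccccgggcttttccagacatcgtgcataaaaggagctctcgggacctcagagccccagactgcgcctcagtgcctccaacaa

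Over the 439 genes that the naming rule takes, 416 had no overlap between the knockout and WT libraries. The rule takes mostly called genes, and the largest changes for having no overlap, so this share says little beside the 66% over all genes tested.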

How the data were processed

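RNA of 20 macrophage libraries was sequenced by the authors, who trimmed reads with cutadapt, mapped them to mm10 with STAR and counted them per gene with HTSeq, with FastQC and MultiQC for quality. The deposited values are counts per gene symbol. The labels also name DESeq and DESeq2, and no version of these tools is stated. The 3 Mcu-/- and 5 WT zymosan libraries were fitted alone with edgeR 4.0.16 in R 4.3.3 (quasi-likelihood test, TMM scaling, filterByExpr with a minimum count of 10), and p-values were adjusted by Benjamini-Hochberg over all genes tested, with a threshold of 0.05. Of 21963 entries, 5050 were at 0 in all 20 libraries. Log2 CPM used a prior count of 2. The shift of untreated Mcu-/- library 4 has no test. DESeq2 1.42.0, other scalings and filters, and leaving out each library were tried, and the code was tested on simulated data. Python 3.11.15 and matplotlib 3.10.9 drew the plots. Gene coordinates are from GENCODE vM21. Genes on the sex chromosomes that mark sex carry no values here.

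The comparison, gene lists and tests were chosen with earlier results of these data known. Named genes are Mcu and its complex, and the genes the study names. To these were added, of the called genes whose groups did not overlap and whose higher group averaged 10 CPM or more, the 15 with the greatest fold change upward and the 15 downward. From each list came as many as 4 called members in either direction whose higher group averaged 5 CPM or more, and its member with the most counts. Some genes that these rules take are not reported here. The SE printed with a fold change comes from the edgeR fit and takes in the spread between libraries. A floor covers counting error only and is 3 counts per library.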

Additional observations from a re-analysis of the deposited data

Results flagged for a closer look

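The untreated Mcu-/- libraries and the WT zymosan libraries were searched for 1 library set far from the others, relative to the range of its group. Chance gives about 1 in 20 such cases. In untreated Mcu-/- cells, 13 of 15 gene lists had such a library, and it was library 4 each time. Library 4 was already known to be unlike its replicates, so this count restates that and is not set against chance. Its mean log2 CPM of a list minus the mean of the other 3 libraries was 2.17 for interferon-stimulated genes, 1.27 for MHC class I genes, 0.807 for NRF2 antioxidant genes, 0.571 for lysosomal genes and 0.472 for hypoxia and glycolysis genes. It was -3.35 for mitosis, -1.14 for mitochondrially encoded genes, -0.921 for DNA replication, -0.773 for sterol synthesis and -0.77 for fatty acid synthesis. Smaller differences were -0.278 for respiratory chain complexes II to V, -0.276 for cytosolic ribosomal proteins and -0.265 for complex I.

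In WT cells with zymosan, 2 of 15 lists and 3 of 53 genes had such a library, about what chance gives. The 53 genes are those whose values per library are printed, a set that was widened after values had been seen. Library 4 was lower for hypoxia and glycolysis genes by a log2 difference of -0.0916 and for Ccnd1 at -0.332. Library 3 was lower for complex I genes at -0.0582 and for Marco at -0.0717, and library 1 for Mcub at -0.213. All of these are small beside the differences between genotypes, except that of complex I, whose list median is also small.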

How the results depend on the processing

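Over 7457 values of named genes under all alternatives, 7096 were counted as unchanged. For a gene called in the main fit this means the same direction and a call again. A gene not called there was also counted as unchanged where its direction changed. Of the rest, 354 no longer passed the threshold (102 of them outside the requirement of a fold) and 7 newly passed it. Among genes called in the main fit, 0 changed direction. Leaving out each library gave 3750 to 4028 genes higher and 3698 to 3910 lower. The ranges were 42 to 44 for interferon-stimulated genes higher, 30 to 32 for lysosomal genes higher, 26 to 27 for hypoxia and glycolysis higher, 22 to 23 for NRF2 genes higher, 17 to 21 for complex I lower, 24 to 27 for complexes II to V lower, 8 to 9 for mitochondrially encoded genes lower, 57 to 61 for cytosolic ribosomal proteins lower and 33 to 36 for DNA replication lower.

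With all 20 libraries in 1 fit, 12 interferon-stimulated genes were higher, not 44, and without untreated Mcu-/- library 4 the count was 44. In that fit Acod1, Ccl4, Ccl5, Ccl12, Cd200r1, Cxcl10, Gvin1, H2-T22, Iigp1, Irf1, Irf7, Irf9, Rsad2 and Samd9l also lost their calls. The cause was not tested. Where a log2 fold change of at least 1 was required as well, by construction fewer genes passed: 761 higher and 950 lower. The lists then gave 8 inflammatory cytokines, 10 interferon-stimulated, 4 MHC class I, 8 hypoxia and glycolysis, 7 NRF2 and 12 lysosomal genes higher, and 0 complex I, 0 complexes II to V, 1 cytosolic ribosomal, 7 sterol, 5 fatty acid and 14 DNA replication genes lower. With a shift of at least 1 in place of 0.5, 1500 called genes were shifted the same way in library 4, not 3164.

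The groups share the column numbers 3, 4 and 5. Same-numbered libraries had correlations of 0.0278, 0.000417 and 0.0326 in their deviations. For knockout libraries 3 and 5 the same-numbered WT library gave the highest value, while knockout library 4 correlated best with WT library 2 at 0.0155. All of these values are small, so the numbers are not read as pairs. With the number as a replicate block, 3745 genes were higher and 3667 lower. With scaling by library totals the median over all genes was -0.0324. With no filter beyond 1 count, 15916 genes were tested, with 4247 higher and 4134 lower.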
